A study of Mus musculus with 7 samples.

Results

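The genes of pyruvate entry and of the citric acid cycle were examined for peaks of the clock proteins BMAL1 and REV-ERBα and of RNA polymerase 2 (RNAP2) in mouse gastrocnemius, a calf muscle rich in fast fibers. The set was a fixed list of 35 genes out of 21938 protein-coding genes of the mm10 (GRCm38) annotation, named by pathway, and that rule uses no measured value. For each gene, peaks were collected over the gene body and within 10 kb of any annotated transcription start site (TSS). By the labels, all chromatin came from wild-type male C57BL/6J mice aged 5 months, kept on normal chow, and the samples are titled as controls. The study's methods name as its controls the Cre-negative littermates of a cross between floxed Bmal1 and Mlc1f-Cre lines of C57BL/6 mice, and whether the mice used here carried floxed alleles is not stated. No group was treated. BMAL1 and RNAP2 were precipitated at ZT4, that is 4 h after lights on, and REV-ERBα at ZT8, with 2 biological replicates for each protein. Each protein was sampled at 1 time only, so differences between times of day cannot be read from these lists, and BMAL1 and REV-ERBα differ in antibody and in time together.

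The pyruvate dehydrogenase complex turns pyruvate into acetyl-CoA inside mitochondria and so commits carbohydrate carbon to oxidation. Its activity is set by kinases that switch it off through phosphorylation and by phosphatases that switch it back on, and pyruvate reaches it through the mitochondrial pyruvate carrier. The citric acid cycle then oxidizes the acetyl group, while pyruvate carboxylase, malic enzymes and transaminases add or withdraw intermediates. In the circadian clock, BMAL1 is an activator that binds E-boxes as a dimer with CLOCK, REV-ERBα is a repressor that binds response elements built on a nuclear receptor half-site, and RNAP2 at a promoter is polymerase that is initiating or paused there.

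A peak was kept as the authors' caller gave it, with a −log10 p against input. A region in both replicates was a place where the peaks of both lists of a protein overlapped by at least 1 bp, and its strength was the lower −log10 p of the pair. The lists were unequal, from 28881 and 29934 peaks for REV-ERBα to 34737 and 177669 for BMAL1 and 87870 and 168821 for RNAP2. Regions in both replicates numbered 1263 for REV-ERBα, 2742 for BMAL1 and 10752 for RNAP2. The muscle origin of the chromatin was visible in RNAP2, since 8 of 8 muscle fiber genes had a region in both replicates with a median strength of 31.7. Of 17 markers of other cell types and tissues, 6 had such a region, the strongest at 16.2. Whole muscle was used, so more cells carrying a protein and more protein per cell cannot be told apart.

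One place in the set had peaks of all 3 proteins in every list. It lay at the 5′ end of Mpc1, a subunit of the mitochondrial pyruvate carrier, at chr17:8282780-8283678, and was listed in all 4 BMAL1 and REV-ERBα lists. The stretch around the summit of the stronger BMAL1 peak, at chr17:8283191-8283471 on the plus strand of mm10, is intronic in the longest Mpc1 transcript and lies upstream of the starts of the shorter ones. It is shown because it holds the only CACGTG E-box found within 100 bp of the summit of a BMAL1 or REV-ERBα region in both replicates of these genes, here in capitals.
Mpc1: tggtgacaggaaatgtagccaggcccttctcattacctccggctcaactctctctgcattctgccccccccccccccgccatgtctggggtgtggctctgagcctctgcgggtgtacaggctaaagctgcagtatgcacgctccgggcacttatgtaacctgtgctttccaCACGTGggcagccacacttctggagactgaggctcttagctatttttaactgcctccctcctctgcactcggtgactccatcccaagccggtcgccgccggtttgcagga
The E-box at chr17:8283362-8283367 starts 31 bp downstream of the BMAL1 summit of replicate 1 and 32 bp upstream of the REV-ERBα summit of replicate 2.

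At Mpc1 the BMAL1 peak reached 9.42 on the −log10 p scale in the first replicate and 3.18 in the second, with fold enrichments over input of 4.38 and 2.63. The REV-ERBα peak at the same place had 2.29 and 6.57, at 2.01-fold and 3.58-fold. The stronger replicate was thus the first for BMAL1 and the second for REV-ERBα. RNAP2 covered the site in both replicates, with a −log10 p of 31.4 and 12.9. The BMAL1 summits were 427 and 496 bp from the 5′ end of the gene, the REV-ERBα summits 665 and 490 bp, and the RNAP2 summits 708 and 758 bp. By strength the BMAL1 region ranked 79 of 2742, and the REV-ERBα region, held down by its replicate 1, ranked 746 of 1263. Among 550 sites that recurred in 3 or 4 of the lists of BMAL1 and REV-ERBα, this one ranked 70 by mean −log10 p, at 5.36. The −log10 p of different antibodies has no common scale, so this rank gives only a rough order. The q value, which corrects for all positions tested, passed 0.05 in 1 list of BMAL1 and 1 of REV-ERBα and in neither protein's other list.

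Dlst was the other gene with REV-ERBα at the 5′ end in both replicates. It encodes the succinyltransferase core of the 2-oxoglutarate dehydrogenase complex, the cycle's counterpart of pyruvate dehydrogenase. The REV-ERBα region, at chr12:85110593-85111218, reached −log10 p values of 4.10 and 8.08 in the replicates, at 2.79-fold and 4.04-fold. Its summits were 39 and 0 bp from the 5′ end, in the first exon, and it ranked 313 of 1263. RNAP2 peaks of 17.0 and 6.04 covered it, and neither BMAL1 list had a peak there. The divergent gene Prox2 starts 74 bp upstream of the stronger summit, so the region belongs to both promoters. The 73 bases between the start sites, chr12:85110760-85110832 on the plus strand, are shown because they are the shared promoter itself, and they held none of the 6 motifs searched.
Dlst: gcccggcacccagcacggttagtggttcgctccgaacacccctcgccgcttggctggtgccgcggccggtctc

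**Figure D1:**
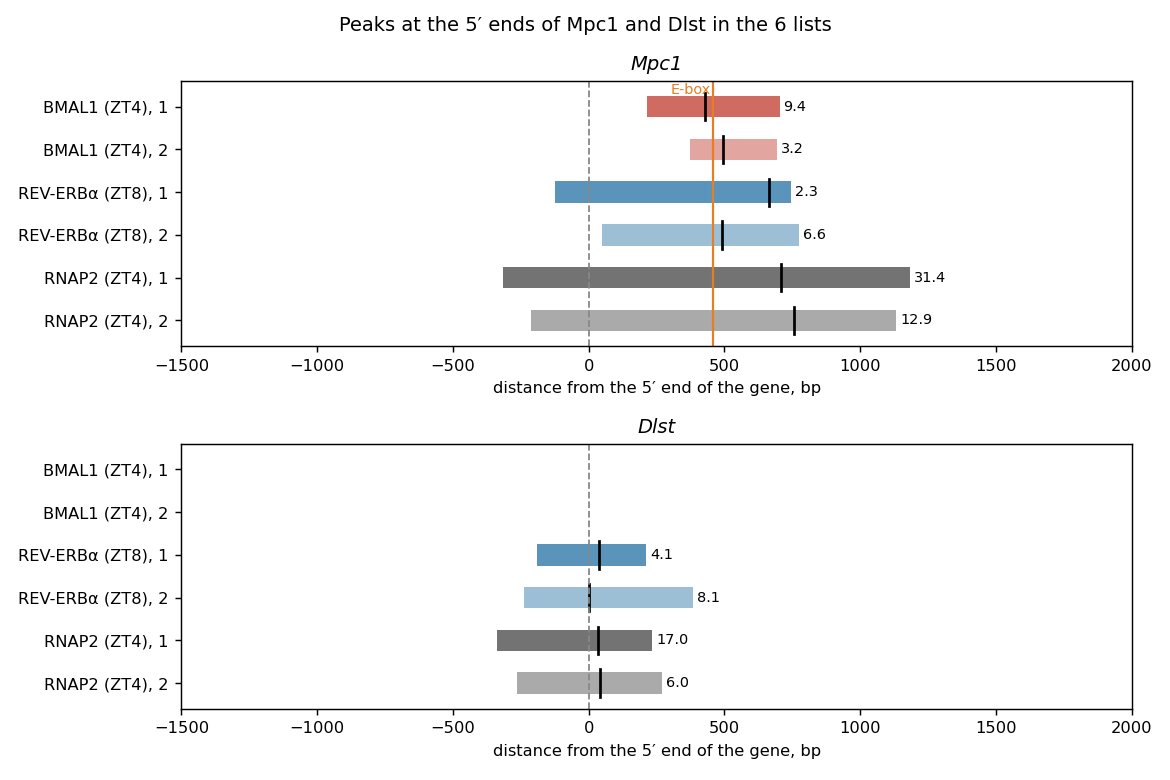
Peaks at the 5′ ends of Mpc1 and Dlst, against distance from the 5′ end of the gene in bp. Each row is 1 list (protein, ZT and replicate), bars span peaks, black ticks are summits, figures beside bars are −log10 p, and the orange line is the E-box. At Mpc1 all 6 lists had a peak over the E-box, while at Dlst the REV-ERBα and RNAP2 summits lay close to the 5′ end and BMAL1 had no peak.

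RNAP2 was present at most of the set. A region in both replicates was found in the window of 28 of the 35 genes (80%), against 41.1% of the 21903 other protein-coding genes. Within 1 kb of a TSS the counts were 27 of 35 (77.1%) against 30.5%. The difference was not tested. Over the 28 genes the median strength was 6.12 (quartiles 4.44 and 12.4, range 1.64 to 24.1), against 4.47 (quartiles 2.64 and 7.49) for 8999 other genes with an RNAP2 region. Of the 28, 20 lay above the median of the other genes and 8 above their 90th percentile of 12. The highest of these, 24.1 in the window of Idh3b, lay at the start of the neighbour Nop56. Within 1 kb of a gene's own TSS the median was 6.04 over 27 genes, with a highest value of 17.7, against a median of 4.73 over 6674 other genes. The order turned when only peaks with −log10 q of at least 1.3 were kept, with a median of 6.86 over the 20 genes left and 7.94 over the others. Without RNAP2 replicate 2 the median was 7.13, and without replicate 1 it was 5.61.

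The replicates ordered the genes alike. Over the 35 genes, Spearman's rho between the strongest RNAP2 peak of replicates 1 and 2 was 0.89. This is a description across genes that share the same 2 libraries. The peak was stronger in replicate 1 at 27 genes and in replicate 2 at 7. That split was not counted over the other genes. Over all peaks of the RNAP2 lists the median −log10 p was 3.21 in replicate 1 and 1.99 in replicate 2.

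**Figure D2:**
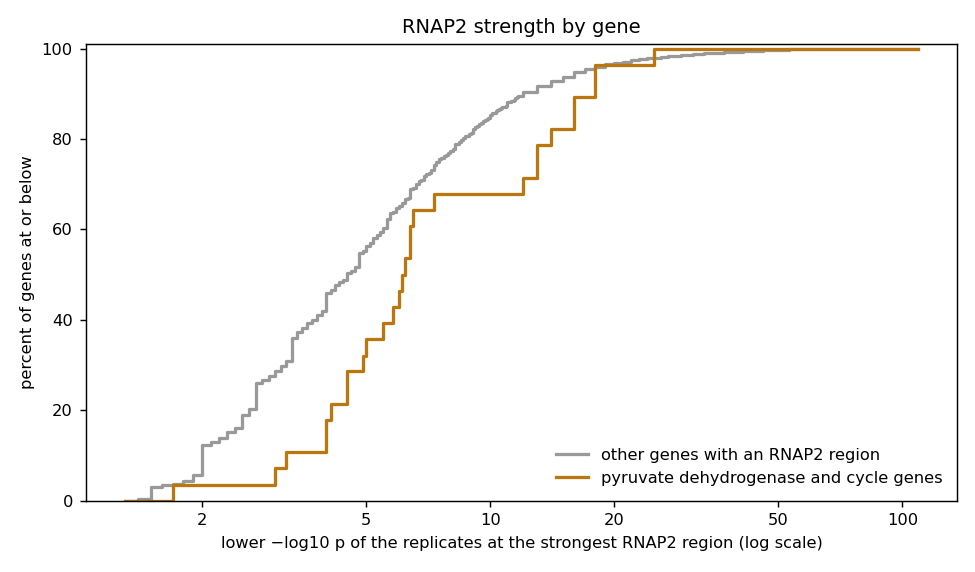
Cumulative percent of genes against the lower −log10 p of the replicates at the strongest RNAP2 region (log axis). The line of the 28 pyruvate dehydrogenase and cycle genes, with a median of 6.12, runs to the right of that of 8999 other genes, with a median of 4.47, over most of its length.

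All 5 genes of the pyruvate dehydrogenase complex had RNAP2 at the promoter in both replicates, with a median strength of 6.35. Dlat, the acetyltransferase core, was the strongest of them, with a −log10 p of 30.9 and 17.7 and fold enrichments of 13.1 and 8.17, above 95.8% of the other genes with RNAP2. Pdhb, the beta subunit of the decarboxylase, had 13.1 and 15.4, and Pdha1, its alpha subunit, 13.8 and 6.35. Pdhx, the component that anchors the dehydrogenase subunit to the core, had 6.76 and 4.88. Dld, the dehydrogenase subunit that this complex shares with the 2-oxoglutarate dehydrogenase complex, was the weakest at 3.11 and 3.13. The subunits of the complex thus spanned a range of 3.11 to 17.7 in strength.

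Of the 6 regulators, 4 had RNAP2 in both replicates. Pdk2, a kinase that inactivates the complex, was the strongest with 17.1 and 19.0, and both values lay above both of Pdk1, a further kinase, at 10.5 and 7.22. Pdk3, the third kinase of the list, had no RNAP2 peak in either list over a window of 83.1 kb. Of the phosphatase genes, Pdp1, a catalytic subunit, had 13.1 and 5.79, and Pdpr, the regulatory subunit, 7.49 and 4.44. Pdp2, the other catalytic subunit, had 5.07 at its promoter in replicate 1, and in replicate 2 only a peak of 2.60 away from the promoter.

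Both subunits of the pyruvate carrier stood high. Mpc2 had 15.9 and 21.4 in a region of 1861 bp, and Mpc1 had the 31.4 and 12.9 given above in 1499 bp. The median length of the strongest region was 850 bp over the 28 genes and 654 bp over the other genes.

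Of the 13 mitochondrial cycle genes, 11 had an RNAP2 region in both replicates, 10 of them at the promoter, with a median over all 13 of 5.42. Ogdh, the decarboxylase of the 2-oxoglutarate dehydrogenase complex, had 17.4 and 15.4. Mdh2, mitochondrial malate dehydrogenase, had 36.2 and 11.9, so that its replicate 1 value was the highest of any promoter of the set and its replicate 2 value was below that of 7 other promoters. Cs, citrate synthase, which opens the cycle, had 6.67 and 6.19. Fh1, fumarase, had 6.50 and 6.74. Of the subunits of succinyl-CoA ligase, Sucla2 had 6.22 and 5.42, Suclg2 6.55 and 3.97 and Suclg1 5.27 and 2.91. The Sucla2 region lay at an annotated internal start, 27493 bp downstream of the gene's 5′ end in replicate 1.

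At the promoters of the genes of NAD-dependent isocitrate dehydrogenase, RNAP2 was weak or was found in 1 replicate only. Idh3a, its catalytic subunit, had the lowest strength among the 28 genes with an RNAP2 region, at 3.20 and 1.64. Idh3b had 57.3 and 24.1 in its window, but that region lay at the start of the neighbour Nop56, 18 bp from its TSS. At the promoter of Idh3b itself replicate 1 had 6.45 and replicate 2 had no peak. Idh3g had 3.97 and 3.26 at its promoter, and its strongest region, 5.65 and 3.97, lay at the start of the neighbour Srpk3. Idh2, the NADP-dependent mitochondrial enzyme, had 5.48 at its promoter in replicate 1 and in replicate 2 no peak above 2.60, none of them at the promoter. Ogdhl, a relative of Ogdh, had 4.79 and 2.60 at places that did not overlap.

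Neighbouring starts touched other genes of the set too. At 8 of the 28 genes (28.6%) the strongest RNAP2 region had a TSS of another protein-coding gene within 1 kb of its summit, against 33.1% of the other genes with RNAP2. These were Idh1, Mpc2, Mdh1, Dlst, Pdhx, Idh3b, Mdh2 and Idh3g. The regions of Idh3b and Idh3g lay at the start of the neighbour and not within 1 kb of their own. For the others the polymerase of a gene and its neighbour cannot be told apart. Over the remaining 20 genes the median strength was 6.27, against 3.97 over the other genes treated the same way.

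The 5 cytosolic enzymes had a median strength of 4.44, with 0 for a gene without a region, against 5.12 over the 6 regulators counted the same way. Got1, the cytosolic aspartate transaminase of the malate-aspartate shuttle, had 12.5 and 6.35 at its promoter. It also had a region of 12.6 and 5.51 about as strong, at −3668 bp from its 5′ end in replicate 1, with Got1 as the nearest protein-coding gene. Aco1, cytosolic aconitase, had 10.4 and 5.91, and Mdh1, cytosolic malate dehydrogenase, 4.09 in each replicate. The strongest region in the window of Idh1, the cytosolic NADP-dependent isocitrate dehydrogenase, had 6.22 and 4.44 at the divergent start of Pikfyve. Me1, cytosolic malic enzyme, had 7.49 at its promoter in replicate 1, and in replicate 2 none there and at most 3.72 elsewhere.

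Of the 4 mitochondrial anaplerotic and shuttle genes, Pcx and Me3 had RNAP2 in both replicates, and the median over all 4 was 2.47, the lowest of the role groups. Pcx, pyruvate carboxylase, which makes oxaloacetate from pyruvate, had 12.3 and 12.6. Me3, a mitochondrial malic enzyme, had 5.94 and 4.93 at its promoter. Me2, the other mitochondrial malic enzyme, had 4.61 and 2.69, and Got2, mitochondrial aspartate transaminase, had 2.93 and 3.26, in each case without overlap between the replicates. Differences between genes and between role groups were not tested and are given as values.

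**Figure D3:**
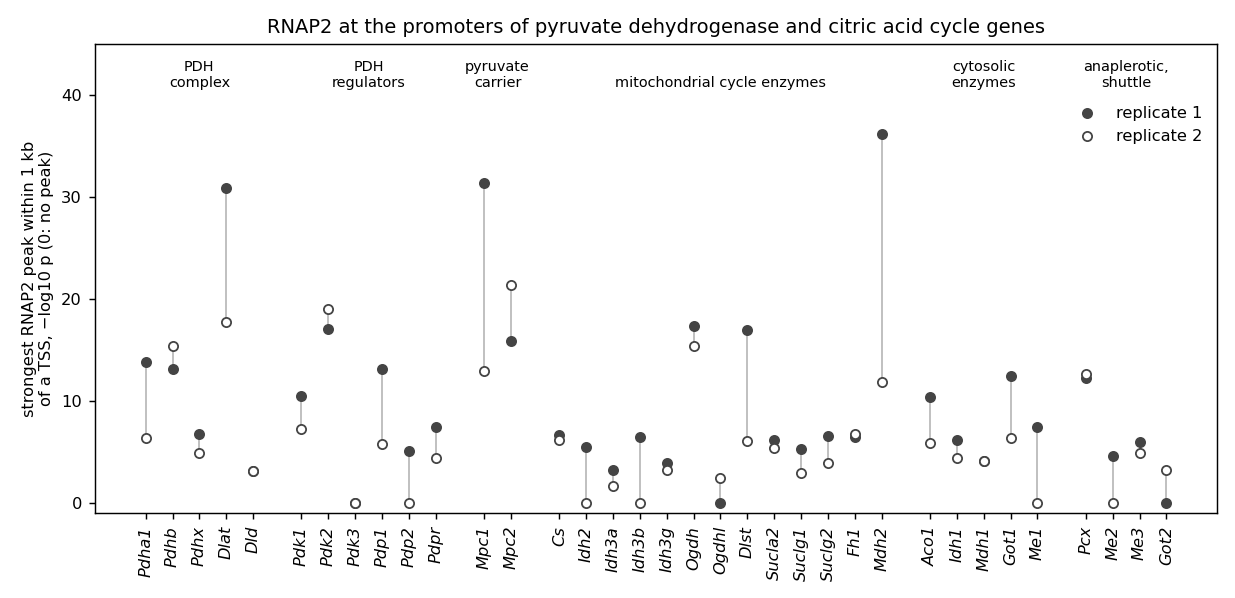
Strongest RNAP2 peak within 1 kb of a TSS for each of the 35 genes, as −log10 p, grouped by role. Filled circles are replicate 1, open circles replicate 2, grey lines join them, and 0 means no peak. Dlat, Pdk2, Mpc1, Mpc2, Ogdh, Mdh2, Pdhb and Pcx stand above 11 in both replicates, and Pdk3 has no peak in either.

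REV-ERBα was found at few genes of the set, in a share near that of other genes with RNAP2. A region in both replicates was found at Mpc1, Dlst and Suclg2, that is at 3 of the 28 genes with RNAP2 (10.7%), against 8.49% of the other genes with RNAP2. Within 1 kb of a TSS the count was 2 of 28 (7.14%) against 4.16%. At Suclg2, the GTP-forming subunit of succinyl-CoA ligase and the longest window of the set at 256 kb, the region at chr6:95668263-95668885 was intronic and weak. Its peaks had −log10 p values of 1.71 and 1.43, and it ranked 1239 of 1263.

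No REV-ERBα peak of either list fell in the window of 12 of the 35 genes, among them Pdha1, Pdhb, Dld, Pdk1, Mpc2, Idh1 and Mdh2. Of the 28 genes with RNAP2, 9 had none (32.1%), against 31% of the other genes. A further 8 genes had a peak in replicate 1 only and 4 in replicate 2 only. At 11 genes each list had a peak, but at 8 of these the peaks did not overlap. Of the 28 genes with RNAP2, replicate 1 marked 53.6% and replicate 2 marked 46.4%, against 49.8% and 52.7% of the other genes with RNAP2. How often whole windows held a peak in 1 list only, or peaks of the 2 lists that failed to overlap, was not counted for the other genes. These counts therefore only describe the set. One single-list peak was high. In replicate 1 a REV-ERBα peak of 13.4, at 4.95-fold, lay in the window of Idh3b, at −102 bp from the Nop56 start, where replicate 2 had no peak in the window.

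Peaks near an annotated TSS in 1 list only were common. For REV-ERBα, 9 of the 35 genes had a peak within 1 kb of a TSS in 1 list only, the highest being Pdk2 with 3.75 in replicate 2, Aco1 with 3.62 in replicate 1 and Pcx with 3.18 in replicate 2. For BMAL1, 15 genes did, the highest being Cs with 3.97 in replicate 1, Idh3b with 3.66 in replicate 2, and Dlat and Ogdh with 3.60 each in replicate 2. Of the 28 genes with RNAP2, 28.6% had such a REV-ERBα peak and 50% such a BMAL1 peak, against 16% and 35.7% of the other genes with RNAP2. Such peaks had no support from the other replicate. The REV-ERBα peaks of Pdk2, Aco1 and Pcx lay at annotated internal starts, 11388, 23361 and 83745 bp from the gene's 5′ end. The BMAL1 peak of Dlat also lay at an internal start, 11994 bp from the 5′ end. The 3.75 of Pdk2 was shared by 1541 peaks of its list (5.15%) and the 3.18 of Pcx by 3576 (11.9%).

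BMAL1 regions in both replicates were found in the windows of 6 of the 35 genes, Mpc1, Pdk1, Suclg2, Dld, Pdhx and Me1. Of the 28 genes with RNAP2 the count was 5 (17.9%), against 10.2% of the other genes with RNAP2. In the other genes the share was larger for longer windows, from 3.55% at 20 to 23.9 kb to 23.3% at 73 kb and above. The median window was 37.7 kb for the set and 37.1 kb for the other genes. Within 1 kb of a TSS only Mpc1 was left, 1 of 28 (3.57%) against 1.43%. Leaving out either list moved these counts, to 21 genes with a peak in replicate 1 and 32 with a peak in replicate 2, since single lists marked 48.3% and 93.1% of the other genes.

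The 5 BMAL1 regions away from Mpc1 were intronic, and none overlapped a REV-ERBα or RNAP2 region in both replicates. The Pdk1 region, at chr2:71889115-71890192, had −log10 p values of 3.54 and 3.60 and ranked 57 of 2742. The Suclg2 region, at chr6:95535323-95536080, had 3.0 and 4.25 and ranked 86. The Dld region, at chr12:31334636-31335491, had 3.0 and 1.40 and ranked 2362. These 3 ranks are the best place among tied regions. Of all BMAL1 regions, 97.5% were weaker than that of Pdk1, 95.8% than that of Suclg2 and 2.41% than that of Dld. The Pdhx region, at chr2:103048819-103049791, had 1.58 and 3.60, and the Me1 region, at chr9:86602533-86603431, had 1.58 and 1.87.

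Many low values in these lists are steps shared by a large number of peaks. The 3.60 of Pdk1 and Pdhx in replicate 2 was the value of 6380 peaks of that list (3.59%), and the 1.87 of Me1 that of 52230 peaks (29.4%). In replicate 1 the 3.0 of Dld and Suclg2 was shared by 4478 peaks (12.9%). By contrast, the Mpc1 value of 9.42 in BMAL1 replicate 1 belonged to 1 peak and the 3.18 in replicate 2 to 27 peaks, and the Dlst values for REV-ERBα to 2 and 1 peaks. When the overlap had to cover at least 50% of the shorter peak, the BMAL1 regions at Mpc1 and Pdhx were left, and when both peaks needed a −log10 p of 3 those at Mpc1 and Pdk1. The 3.0 of Suclg2 is rounded up from a shared step just under 3, so its region fell outside by that margin alone.

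**Figure D4:**
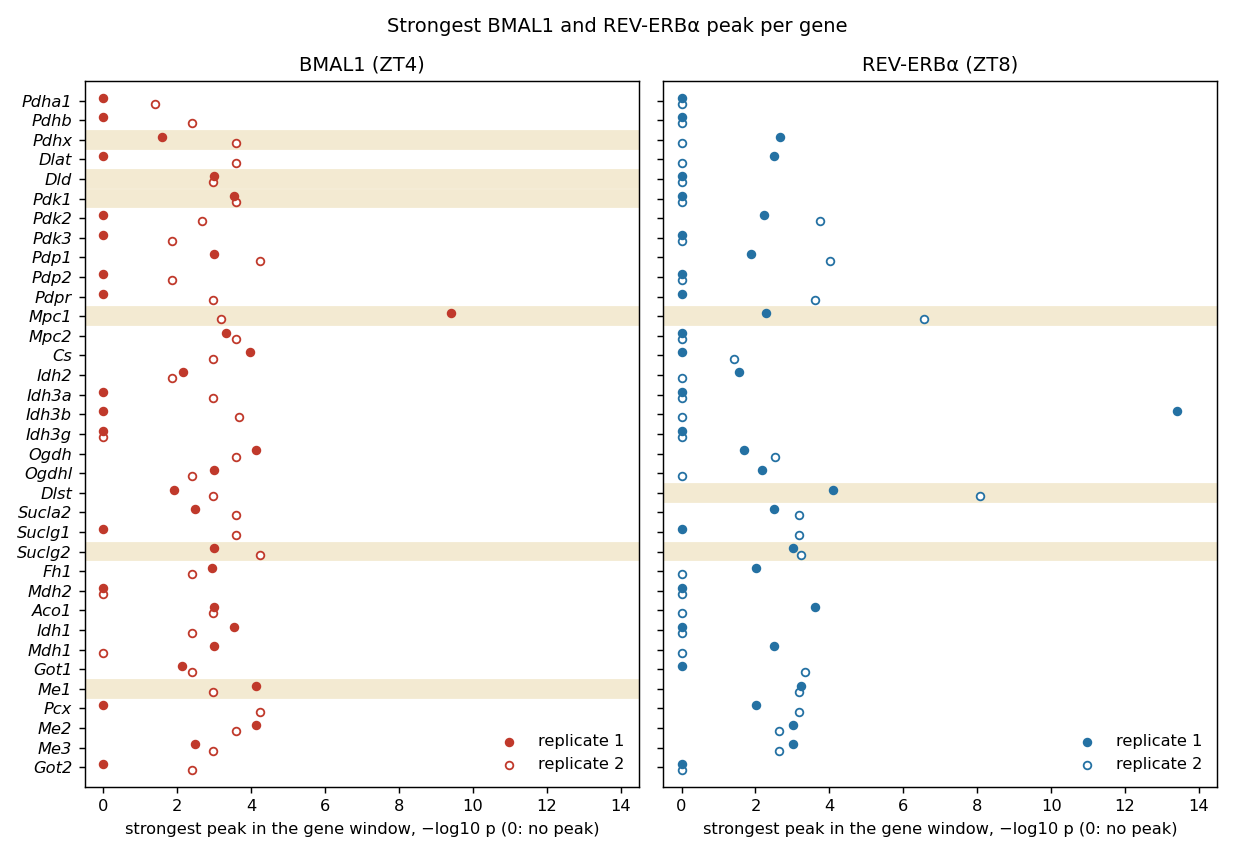
Strongest BMAL1 peak (left) and REV-ERBα peak (right) in the window of each gene, as −log10 p, with replicate 1 filled, replicate 2 open and 0 for no peak. Shaded genes had a region in both replicates, although the strongest peaks of a shaded gene need not be the overlapping ones, as at Suclg2. Mpc1 and Dlst stand out to the right among shaded genes, and the 13.4 at Idh3b came from 1 list.

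Sites common to 3 or more of these 4 lists occurred at Mpc1 alone, 1 of 28 (3.57%) against 3.03% of the other genes with RNAP2. The Mpc1 site was in all 4 lists, so leaving out any 1 and requiring the remaining 3 was bound to find it again. It was absent when a −log10 q of at least 1.3 was asked of each peak, as were all regions of BMAL1 and of REV-ERBα in both replicates of the set.

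E-boxes stood at several promoters of the set where BMAL1 had no region. Of the 35 genes, 32 had a promoter window in RefSeq, on GRCm38, from 250 bases before to 50 after a start. Both strands were searched for 6 motifs: the E-box CACGTG, its variant CACGTT, the nuclear receptor half-site AGGTCA, the ERR element TCAAGGTCA that contains it, the myogenic E-box CAGCTG and the NRF1 core GCGCATGC. The E-box was found at 6 of the 32 genes, and in 9.18% of 16522 genes. These matches are shown on the strand of the gene with 10 bases to each side and the E-box in capitals, below the one at Mpc1, since they are the places where BMAL1 could be looked for by sequence.
Mpc1, intron: gtgctttccaCACGTGggcagccaca
Ogdh, first: cgcggcgtgtCACGTGgaccggtcgc
Ogdh, second: caagaatcctCACGTGgataccatgt
Ogdhl: gcggccgtgtCACGTGacctaggtaa
Pcx: ccagacggccCACGTGaggctttcaa
Pdk2: cgaggagagcCACGTGtcgaagcgca
Pdp2: ggaagagcccCACGTGacgacctact
Pdpr: caaacaagcgCACGTGcgggccggtc
In BMAL1 replicate 1 no peak covered a promoter E-box of the set, and the nearest peak was 8016 bp away, at Ogdhl. In replicate 2 a peak of 1.87, the commonest low step, covered the Pdpr E-box, and at the others the nearest peak was 1068 to 7109 bp away. RNAP2 peaks of both replicates covered the E-boxes of Pdk2 and Pdpr and the first of Ogdh, which is at chr11:6292060-6292065, and a REV-ERBα peak of 1.69 in replicate 1 covered that one too. Of 1516 genes with a promoter E-box, 14 (0.923%) had a BMAL1 region in both replicates over that window, and of 15006 without one, 28 (0.187%).

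Of the other motifs, the half-site AGGTCA was in the promoter windows of 9 of 32 genes and of 16.4% of all genes. CAGCTG was found at 4 (17.7% of all), the NRF1 core at Ogdh (4.11%), and CACGTT and the ERR element at none (5.51% and 0.387%). Within 100 bp of the summit of the stronger peak of regions in both replicates, the E-box was at 1 of the 6 BMAL1 regions of the set and in 2.55% of all BMAL1 regions, and at 1 of the 3 REV-ERBα regions and in 3.4% of all. In both cases this was the E-box of Mpc1. AGGTCA was at none of the 9 summits, against 10.7% of BMAL1 and 13.1% of REV-ERBα regions. CAGCTG was at the BMAL1 region of Dld, 21 bp before the summit. The promoter windows of the set had a median GC content of 62.7% and 23 CpG, against 57.7% and 15 in the other genes.

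Further genes around the same reactions were described as counts. Of 12 such genes, carriers of citrate, malate, 2-oxoglutarate and aspartate, lipoylation enzymes, glutamate dehydrogenase, alanine transaminases and ATP citrate lyase, all 12 had an RNAP2 region in both replicates in the window, with a median strength of 5.96. Among protein-coding genes outside the set the share was 41.1%. At Slc25a1, Slc25a10, Slc25a13 and Lipt1 no such region lay within 1 kb of the gene's own TSS. Slc25a11 had 3.58 there and 11.4 in the window. None of the 12 had a BMAL1 region in both replicates, and 1, Gpt, cytosolic alanine transaminase, had a REV-ERBα region, with its strongest peaks at 3.57 and 2.59. Among genes with RNAP2 outside the set the shares were 10.2% and 8.49%. None of the 12 had a site common to 3 or more of the BMAL1 and REV-ERBα lists, against 3.03%.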

How the data were processed

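Chromatin immunoprecipitation with sequencing was analysed from 6 peak lists, 2 biological replicates each for BMAL1 and RNAP2 at ZT4 and REV-ERBα at ZT8; input samples were not used here as lists, and whether a sample pooled several mice is not given in the sources used here. The authors aligned reads to mm10 with BWA 7.12, removed duplicates with samtools, filtered on mapping quality with bamtools (the labels list the version 2.4.0 beside SAMtools, the methods beside bamtools), down-sampled the replicates of each protein to similar read numbers and called peaks on each sample against input with MACS2 2.1.1 at p of 0.05. The deposited lists give each peak's fold enrichment (a ratio over input), −log10 p, −log10 q and a score, which was not used. Read counts per peak are not in the lists, so no interval is given for a value. By the methods, RNAP2 lists rest on fewer reads than those of BMAL1 and REV-ERBα. Coordinates are 1-based.

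Peaks of a protein that shared 1 bp or more were joined as regions and assigned to genes of GENCODE M21 (Python 3.11.15, pandas 2.3.3, scipy 1.17.1). The step was tested on simulated lists. Sequences came from the mm10 genome with pysam 0.24.0 and from RefSeq promoter windows of GRCm38, of which 43 of 43 windows of the set equalled the genome. All 35 genes were named by role, with values in each list for those with a BMAL1 or REV-ERBα region in both replicates, the strongest RNAP2 or none. The rule for the 35 genes uses no measured value, but these genes, the role groups, the further pathway genes and the marker lists were chosen with earlier results of these data known. With 2 replicates per protein no comparison was tested, and shares are read against the other genes.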

Additional observations from a re-analysis of the deposited data

How the results depend on the processing

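The count of genes with RNAP2 in both replicates stayed between 20 and 28 in every setting that required both lists. The shares of the other protein-coding genes were then 18.9% to 41.1%. Keeping peaks with −log10 p of at least 3 left BMAL1 regions at 2 genes (Suclg2 lay just under the limit in replicate 1) and REV-ERBα regions at 1. Among the other genes with RNAP2 under the same limit the shares were 0.903% and 6.34%. A −log10 q of at least 1.3 left 0 genes with BMAL1, 0 with REV-ERBα and 0 with a site in at least 3 of the 4 lists. The shares of the other genes were then 0.532%, 4.45% and 0.774%. BMAL1 regions were found at 2 genes when the overlap had to reach 50% of the shorter peak (7.05% of the other genes with RNAP2 in the same setting). They were at 1 gene within 1 kb of a TSS (1.84%) and at 3 within 10 kb of a TSS without the gene body (6.5%). Cutting each list to its 28881 strongest peaks left 3 genes (2.37%). Leaving out 1 replicate, so that a single list decided, gave 21 to 32 genes for BMAL1, against 48.3% to 93.1% of the other genes with RNAP2. For REV-ERBα it gave 15 to 19 genes, against 49.8% to 52.7%. RNAP2 was then at 34 genes, against 76.9% to 86.4% of the other protein-coding genes. Its median strength was 5.61 to 7.13, against 3.26 to 4.79. The shared site stayed at 1 gene, which its presence in all 4 lists fixed in advance. These settings leave fewer peaks, less window or fewer lists by construction. The alternative without genes at shared promoters was chosen after seeing the data. The REV-ERBα count was 2 or 3 in the other settings, against 5.41% to 9.61% of the other genes with RNAP2. The unequal list lengths, at similar read numbers within a protein, limit how far an absent peak can be read. No paired analysis was possible because the results come from no test.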
